A study of Mus musculus with 18 samples.

Results

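The livers described here came from 9 newborn mouse daughters, 4 whose mothers had received carbon black during pregnancy and 5 whose mothers had received only the vehicle. They were chosen by the group and sex that the labels give, and are 9 of the 18 pups with a liver array in the study. The dams were time-mated C57BL/6BomTac mice, an inbred strain, and received their doses by intratracheal instillation, in which a suspension is placed into the windpipe. Exposed dams received 67 µg of Printex 90, an industrial carbon black of nanosized particles, on each of gestational days 7, 10, 15 and 18, which is 268 µg in total. Control dams were instilled on the same days with the vehicle, Milli Q water. The pups themselves were never dosed directly, and all were killed on postnatal day 2. The labels number the control daughters 2, 4, 8, 9 and 11 and the exposed daughters 4, 6, 8 and 13. They do not say which pups were littermates, so the p-values below measure the spread between these pups, and a dam's share in that spread was not separated.

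The newborn liver is both a metabolic organ and a site of blood formation. Hepatocytes are taking over gluconeogenesis, nitrogen disposal and the making of plasma proteins at birth, while nests of dividing red cell precursors inherited from fetal life still lie between them. Kupffer cells and lymphoid cells provide interferon and antigen presentation functions. Inhaled carbon black is known mainly for inflammation in the lung that receives it, and its cargo of aromatic hydrocarbons can activate the aryl hydrocarbon receptor, which induces cytochrome P450 enzymes such as Cyp1a1.

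Each array held Cy5-labelled liver RNA of 1 pup beside Cy3-labelled universal mouse reference RNA, a pool of RNA used as a common standard. All values below are log2 ratios of liver over reference, and a difference is exposed minus control on that log2 scale. Median Cy5 signals were 130 to 153 over local backgrounds of 79.5 to 82, and 55.6% to 67.9% of probes lay well above background, so transcripts of low level were read near the background. The hepatocyte markers Alb, Apoa1, Ttr, Trf, Ahsg and Hnf4a were well above background on 9 of 9 arrays. Xist, which silences 1 X chromosome in females, read 1.66 to 2.30 in the 9 daughters, as the label female requires. Exposed daughters 8 and 13 stood apart through genes of other tissues (below), and results that rest on them are also given without them. On the slides the control daughters lay at position 2 and the exposed daughters at position 3 or 4, so array position and exposure cannot be told apart.

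The first question was whether any transcript differed between exposed and control daughters by more than the pups of a group differed among themselves. None of 19777 transcripts passed the test: with a spread fitted for each group, limma called 0% higher and 0% lower at an adjusted p of 0.05, and the smallest adjusted p was 0.346. Fits with 1 shared spread, with a weight for each array, with the deposited processed signals or with the slide as a fixed block also called 0. The median difference was 0.002, with 50.6% of transcripts above 0, which the loess normalization sets near balance by construction; with median centring the median was 0.052. At an unadjusted p under 0.05 there were 1381 transcripts higher (6.98%) and 1263 lower (6.39%), and centring each array on its median in place of loess gave 1613 and 409, so 79.8% in place of 52.2% of them were higher. Every exposed daughter lay above every control daughter in 412 of 19756 transcripts (2.09%) and below in 426 (2.16%). Those shares are the background against which each gene group below is to be read. At an unadjusted p under 0.05 they changed with the setting, so counts under another setting have another background. Higher and lower shares were 8.16% and 2.07% with median centring and 3.49% and 3.04% without exposed daughter 13. They were 3.9% and 3.15% without 8 and 13, 4.11% and 3.4% without 6 and 13, 8.65% and 5.84% without 4, and 4.8% and 4.66% without 6. Without exposed daughter 4, limma called 10 transcripts higher and 2 lower. The 9 named ones among them were Shisa2, Cbr3, Il17d, Ccn2, Adamtsl2, Lmod1, Tagln, Pmp22 and Fhl1, all higher with adjusted p of 0.0126 to 0.0446 in limma, and named here because they passed. With all 18 pups in 1 fit and 1 shared spread, 132 were called higher and 178 lower, so the number of calls depended on the pups and the spread used.

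What set the exposed daughters apart was their spread. The median SD per transcript was 0.128 among the 5 control daughters and 0.200 among the 4 exposed daughters, a median ratio of 1.59, and 73.7% of transcripts had the larger SD in the exposed group. An SD of at least 1 was reached by 356 transcripts in exposed daughters and by 0 in controls. Each pup was also set against the mean of the controls, leaving the pup itself out where it was a control. Between 8 and 44 transcripts lay at least 2-fold away in a control daughter. Exposed daughter 4 had 99 such transcripts, of which 88 were lower, and exposed daughter 8 had 339, of which 326 were higher. Exposed daughter 6 had 700 and exposed daughter 13 had 1499, in both directions. In the sons measured alongside, the median SD ratio of exposed over control was 1.17, with 20 and 7 transcripts at an SD of at least 1. Without control son 6, whose label is in doubt (below), the ratio in sons was 1.24. The difference in this ratio between the sexes was not tested. The ratio in daughters was 1.31 without exposed daughter 13, 1.12 without daughters 8 and 13 and 0.85 without daughters 6 and 13, where the SD of the exposed group comes from 2 pups and is low for that reason too. It also depended on the processing: it was 1.31 with median centring in place of loess and 1.32 with no filter on dim probes. The ratio in sons was not computed under these settings.

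**Figure D1:**
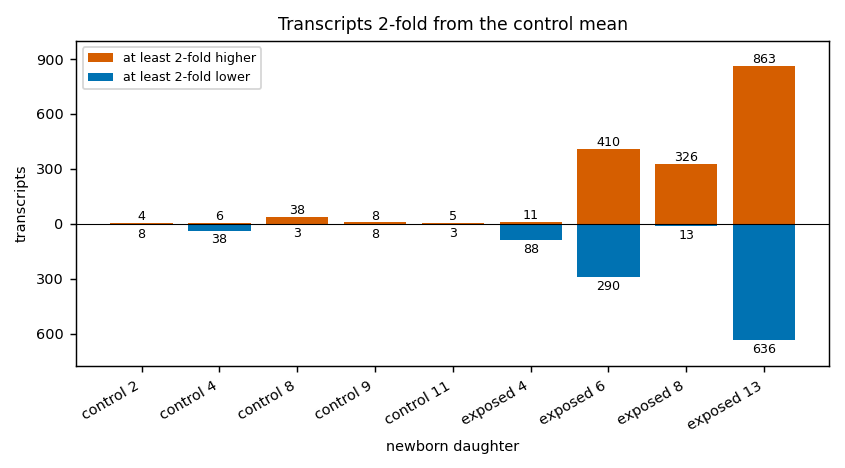
Number of transcripts at least 2-fold higher (orange, upward) or lower (blue, downward) than the mean of the control daughters, on the vertical axis, for each of the 9 newborn daughters. Control daughters have 8 to 44 transcripts in all, exposed daughters 99 to 1499, with daughter 13 the farthest and daughter 4 the nearest.

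No gene passed the test, so the genes named next are those with the smallest unadjusted p in each direction, given as values. The adjusted p of each was 0.346 in limma. In each of them the exposed and control daughters did not overlap. The same side within 4 of 4 slides follows from that and is no separate check. Over all 19777 transcripts, 4356 had the same sign on 4 slides. Hhip, the cell-surface antagonist of hedgehog ligands, read 1.09, 1.08, 1.17, 1.06 and 0.99 in control daughters 2, 4, 8, 9 and 11, and 1.46, 1.46, 1.61 and 1.81 in exposed daughters 4, 6, 8 and 13. The groups did not overlap, and the difference was 0.51 ± 0.09 (SE, n = 4 and 5). Me1, the cytosolic malic enzyme that supplies NADPH, read -1.59, -1.82, -1.78, -1.77 and -1.77 in the controls in the same order and -1.26, -0.76, -1.39 and -1.10 in the exposed pups. Daughter 6 was highest, and all 4 lay above all 5 controls, with a difference of 0.62 ± 0.12. F13a1, the clotting factor subunit that becomes the fibrin cross-linking enzyme, read 2.53, 2.11, 2.04, 2.30 and 2.20 in controls and 2.95, 3.47, 2.74 and 3.00 in exposed pups, again without overlap and 0.80 ± 0.16 apart.

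Chil4, a chitinase-like protein made by myeloid cells, read 4.03, 3.49, 3.52, 3.90 and 3.81 in control and 4.63, 4.68, 4.31 and 5.21 in exposed daughters, a difference of 0.96 ± 0.19. Crispld2, a secreted glycoprotein, read 0.63, 0.70, 0.60, 0.79 and 0.79 against 0.99, 2.16, 1.40 and 2.25, where daughters 6 and 13 lay far above the rest and the difference was 1.00 ± 0.20. Shisa2, an endoplasmic reticulum protein that holds back Wnt and FGF receptors, showed one pup close to the controls: 0.35, 0.24, 0.30, 0.25 and 0.41 in controls against 0.46, 1.56, 1.66 and 1.39 in exposed pups, 0.96 ± 0.19 apart. The remaining genes of the upper 12 were the small GTPase Rhoq (0.68), the cilium-associated Cfap69 (0.59), the formin Daam2 (0.45), the tight junction protein Cldn23 (0.91), the phosphatase Ptpn13 (0.94) and St7l (0.49). Cldn23 was well above background in 2 of 5 controls and all 4 exposed daughters.

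Among the 12 genes with the smallest unadjusted p in the other direction, Ugt3a2, a glycosyltransferase of liver and kidney, read 2.77, 3.16, 3.22, 3.08 and 3.16 in control and 2.24, 2.26, 2.53 and 2.34 in exposed daughters. All 4 exposed pups lay below the lowest control, and the difference was -0.73 ± 0.13. Adh4, an alcohol dehydrogenase that also oxidises retinol, read 1.95, 2.04, 1.96, 2.25 and 2.02 against 1.34, 1.57, 1.69 and 1.52, a difference of -0.51 ± 0.11. Slc7a5, the large neutral amino acid transporter, read -1.50, -1.60, -1.44, -1.53 and -1.44 against -2.06, -1.86, -1.81 and -1.88, a difference of -0.40 ± 0.09 with the lowest value in daughter 4.

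Lck, the Src-family kinase of T cells, read -0.79, -1.01, -0.74, -0.83 and -0.94 in controls and -1.35, -1.55, -1.14 and -1.64 in exposed pups, -0.56 ± 0.12 apart. Pml, the scaffold of nuclear bodies and a gene inducible by interferon, read 0.11, -0.15, 0.31, -0.03 and 0.03 against -0.62, -0.59, -0.31 and -1.08, -0.70 ± 0.16 apart. The set held further the TRAF6 adaptor Tifa (-0.42), the lipid-binding Fabp12 (-0.97), the p53-inducible death domain protein Pidd1 (-0.54), the dynein assembly factor Dnaaf2 (-0.50), the acyltransferase relative Keg1 (-0.82), the phospholipase Plaat3 (-0.75) and BC052040 (-0.63). Fabp12 was lowest in daughter 13, which read 1.03 against 1.96 to 2.28 in the other exposed pups. In none of these 24 genes did the exposed and control daughters overlap, a property that the choice by small p favours.

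**Figure D2:**
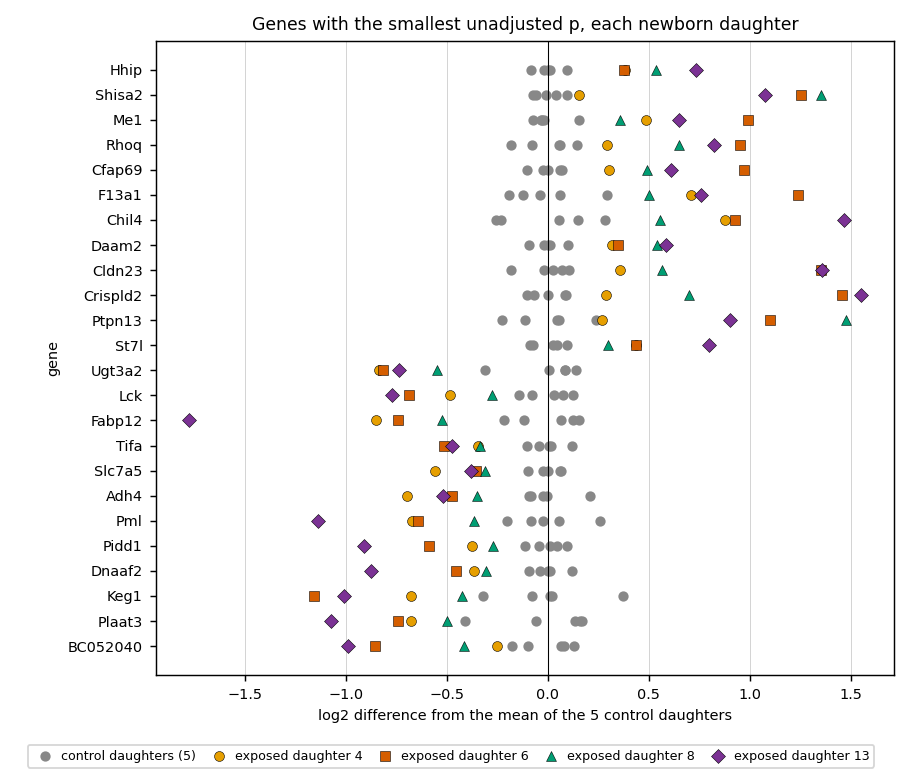
Log2 difference of each newborn daughter from the mean of the 5 control daughters (horizontal axis) for the 24 genes with the smallest unadjusted p, 12 in each direction. Grey points are control daughters and coloured symbols the 4 exposed daughters, which lie to the right of all controls in the upper 12 genes and to the left in the lower 12.

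The widest group of genes on one side was the cell cycle. Of 35 measured genes of S phase and DNA replication, 35 lay below 0, and of 36 genes of mitosis and cytokinesis, 36 did. The medians were -0.70 and -0.65 beside 0.002 over all transcripts, no member was called by limma, and 30 and 28 members had an unadjusted p under 0.05. With median centring in place of loess these counts were 15 and 5, beside 2.07% of all transcripts lower in that setting and 6.39% with loess. In 8 S phase genes (22.9%) and 2 mitosis genes (5.56%) every exposed daughter lay below every control, beside 2.16% of all transcripts. The S phase list median was 0.05, -0.01, 0.11, -0.34 and 0.22 in the control daughters and -0.48, -0.48, -0.26 and -1.54 in exposed daughters 4, 6, 8 and 13. Daughter 13 thus stood far below the rest, with 32 of the 35 genes at least 2-fold below the control mean against 0 or 1 in the other exposed pups. Control daughter 9, at -0.34, lay below exposed daughter 8 and shared slide 5 with exposed daughter 13. Each was the lowest pup of its group for S phase, mitosis, erythroid and heme genes, and the slide's part in this was not tested. Inside slides 2, 3, 4 and 5 the S phase median, exposed minus control, was -0.51, -0.45, -0.39 and -1.18. With the slide as a fixed block the median was -0.65 for S phase and -0.57 for mitosis. Without daughter 13 the medians were -0.42 and -0.36, and 18 and 5 members had an unadjusted p under 0.05. Without daughters 8 and 13 these counts were 15 and 2, and without daughters 6 and 13 they were 15 and 8.

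Uhrf1, Dck, Igtp, Got1, Cox5b, Ghr, Gclm and Tsc22d3 are named here and below although the rule for named genes did not choose them, so they were picked with their values in view. Uhrf1, which carries DNA methylation through replication, read 0.41, 0.07, 0.22, -0.07 and 0.52 in control daughters and -0.39, -0.61, -0.25 and -2.14 in exposed daughters, a difference of -1.08 ± 0.31. E2f8, a repressor of the E2F family that shapes the liver's polyploid cycles, read 1.27, 0.78, 1.26, 0.96 and 1.52 against 0.45, 0.47, 0.53 and 0.06, -0.78 ± 0.19 apart. Tk1, the thymidine kinase of dividing cells, read 0.50, 0.54, 0.89, 0.43 and 0.64 against 0.05, -0.22, 0.39 and -0.49, -0.66 ± 0.17 apart. All 3 genes were free of overlap, and daughter 13 was the lowest pup in each.

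Foxm1, the factor that drives mitotic genes, read -0.47, -0.68, -0.34, -0.66 and -0.52 in controls and -0.97, -1.06, -0.79 and -1.44 in exposed pups, -0.53 ± 0.14 apart. Kif2c, a microtubule depolymerase of the spindle, was -0.51 ± 0.14 apart, also without overlap. The activator E2f1 (-0.52), the B-Myb gene Mybl2 (-0.76) and the deoxycytidine kinase Dck (-0.88) lay lower as well, each with no overlap, and so did Fanci (-0.87) and Ung (-0.45) among DNA repair genes. Of 22 DNA repair genes 20 lay below 0 with a median of -0.39, and 11 had an unadjusted p under 0.05, against 2 with median centring, 2 without daughters 8 and 13 and 3 without daughters 6 and 13. In the sons the same comparison gave medians of -0.05 for S phase and -0.09 for mitosis. List medians of sons, here and below, include control son 6, whose label is in doubt, and were not computed without it.

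The promoters of these lists were read for sequences by which cell cycle genes are known to be timed. The windows run from 250 bases before to 50 after the start, come from RefSeq on GRCm38.p6, and were searched on both strands. E2F sites were searched as TTTCCCGC, TTTGGCGC or TTTCGCGC, which can overlap one another, and the cell cycle homology region as TTTGAA. An E2F match was found in 12 of 37 windows of 31 S phase genes (32.4%), beside 1.84% of all 32851 windows and 3.14% of the 12381 windows of measured genes, and in 1 of 33 windows of the mitosis list (3.03%). The TTTGAA match was found in 25 of those 33 windows (75.8%) and in 6 of the 37 S phase windows (16.2%), beside 17.9% of all and 12.4% of those of measured genes. These are descriptions of the letters only. The windows of Uhrf1 (chr17:56304063-56304362, + strand), Lig1 (chr7:13278576-13278875, + strand) and Kif2c (chr4:117178723-117179022, - strand) are shown as the members with the smallest unadjusted p whose window holds the match of their list, in capitals.
Uhrf1: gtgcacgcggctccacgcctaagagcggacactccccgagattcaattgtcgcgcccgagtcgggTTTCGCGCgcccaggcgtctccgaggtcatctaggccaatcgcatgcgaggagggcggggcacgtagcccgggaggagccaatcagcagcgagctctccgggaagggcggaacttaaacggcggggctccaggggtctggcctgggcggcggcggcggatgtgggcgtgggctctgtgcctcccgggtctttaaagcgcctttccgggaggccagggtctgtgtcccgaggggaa
Lig1: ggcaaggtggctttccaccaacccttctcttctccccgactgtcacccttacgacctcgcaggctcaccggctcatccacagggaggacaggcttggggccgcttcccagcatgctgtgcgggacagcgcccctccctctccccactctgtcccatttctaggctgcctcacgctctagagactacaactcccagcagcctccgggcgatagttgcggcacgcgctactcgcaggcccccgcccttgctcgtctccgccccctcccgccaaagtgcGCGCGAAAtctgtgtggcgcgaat
Kif2c: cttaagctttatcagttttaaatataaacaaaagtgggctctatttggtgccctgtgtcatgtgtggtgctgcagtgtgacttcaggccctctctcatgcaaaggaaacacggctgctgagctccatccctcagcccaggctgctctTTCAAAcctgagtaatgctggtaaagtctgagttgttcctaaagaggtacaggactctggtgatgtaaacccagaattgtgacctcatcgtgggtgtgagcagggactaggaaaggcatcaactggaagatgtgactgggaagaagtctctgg

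Red cell genes lay lower in 3 of the 4 exposed daughters. All 28 measured erythroid genes and 11 of 12 genes of heme synthesis were below 0, with medians of -0.66 and -0.73, and 12 and 7 had an unadjusted p under 0.05. The erythroid list median was 0.04, -0.45, 0.56, -0.49 and 0.36 in control daughters and -0.95, -0.03, -0.56 and -1.26 in exposed daughters. Daughter 6 read inside the control range, while daughters 4, 8 and 13 lay below every control. Inside slides 2, 3, 4 and 5 the erythroid median, exposed minus control, was -1.1, 0.4, -1.1 and -0.6. With the slide as a fixed block it was -0.59. Aqp1, a water channel of red cells and endothelium, read 2.71, 2.39, 2.55, 2.19 and 2.72 in control and 1.97, 1.67, 2.07 and 0.98 in exposed pups, a difference of -0.84 ± 0.21 without overlap. Slc14a1, the red cell urea transporter, was -0.88 ± 0.27 apart, also without overlap. In the heme pathway Alad, its second enzyme, read 0.89, 0.58, 0.98, 0.38 and 1.01 against -0.01, 0.20, 0.39 and -0.72, -0.80 ± 0.23 apart with daughter 8 just inside the controls, and Uros and Slc25a38, the enzyme uroporphyrinogen synthase and a mitochondrial glycine carrier, were -0.85 ± 0.26 and -0.56 ± 0.18 apart.

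The red cell defining genes did not all take part. The alpha globin gene Hba-a1 read 2.86 to 4.12 in controls and 3.27 to 3.61 in exposed pups, and Alas2, the erythroid heme enzyme, 3.50 to 4.57 and 3.91 to 3.98. Klf1, the erythroid transcription factor, read 3.56 to 4.66 and 2.80 to 4.05. In bulk liver RNA, fewer cells of a type and less RNA per cell cannot be told apart. Daughters 4 and 13 had the lowest erythroid medians, and 13 also the lowest S phase median, while daughter 6 had an S phase median of -0.48 with erythroid genes at -0.03. The part of red cell precursors in the cell cycle values was not tested. Without daughter 4 or without daughter 13, 3 erythroid genes had an unadjusted p under 0.05 in place of 12. Without daughters 8 and 13 there were 2 erythroid and 1 heme gene, and with median centring 9 and 4.

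Interferon-stimulated genes lay lower in all 4 exposed daughters. Each of 29 measured members lay below 0, the median was -0.54, and 17 had an unadjusted p under 0.05 with none called by limma. In 9 of the 29 every exposed daughter read below every control, beside 2.16% of all transcripts. The list median was 0.04, -0.21, 0.30, 0.16 and -0.30 in control daughters and -0.35, -0.78, -0.35 and -0.79 in exposed daughters, so daughters 6 and 13 lay farthest down and all 4 lay below the lowest control. Ifi47, an interferon-inducible GTPase, read 2.73, 2.81, 3.29, 3.56 and 2.71 in controls and 2.09, 1.28, 2.46 and 1.37 in exposed pups, -1.22 ± 0.29 apart. Igtp, another GTPase of the same kind that acts on pathogen vacuoles, read 2.70, 2.62, 2.92, 2.83 and 2.52 against 2.43, 0.63, 2.39 and 0.12, -1.32 ± 0.38 apart. Daughters 4 and 8 lay just below the controls in Igtp, whereas daughters 6 and 13 lay far below.

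Psmb9, an interferon-inducible proteasome subunit, read 0.25, 0.36, 0.77, 0.79 and 0.18 in controls and -0.16, -1.22, 0.13 and -0.65 in exposed pups, -0.94 ± 0.26 apart without overlap. Gbp6, a guanylate-binding protein, was -1.56 ± 0.41 apart and well above background in 3 of the 4 exposed pups. Iigp1 was -1.39 ± 0.38 apart, with exposed daughter 8 at 5.61 inside the range of controls. Antigen presentation genes pointed the same way, with 10 of 10 below 0 and a median of -0.41. The peptide transporter Tap2 was -0.36 ± 0.14 apart without overlap, and the class II gene H2-Ab1 -0.55 ± 0.22 apart with overlap. Without daughters 6 and 13, 9 interferon genes and 0 of 10 antigen presentation genes, in place of 17 and 5, had an unadjusted p under 0.05, and the interferon median was -0.39. In sons, control son 6 included, the interferon list median was 0.01, with 15 of 29 above 0.

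An interferon-stimulated response element, searched by its name's consensus on both strands, was found in 14 of 27 windows of 23 interferon-stimulated genes (51.9%), beside 3.44% of all 32851 windows and 3.09% of those of measured genes. Igtp (chr11:58199306-58199605, + strand) and Ifih1 (chr2:62646206-62646505, - strand), an RNA sensor of viral infection, are shown, with the match in capitals. Both were chosen as the members with the smallest unadjusted p whose window holds a match.
Igtp: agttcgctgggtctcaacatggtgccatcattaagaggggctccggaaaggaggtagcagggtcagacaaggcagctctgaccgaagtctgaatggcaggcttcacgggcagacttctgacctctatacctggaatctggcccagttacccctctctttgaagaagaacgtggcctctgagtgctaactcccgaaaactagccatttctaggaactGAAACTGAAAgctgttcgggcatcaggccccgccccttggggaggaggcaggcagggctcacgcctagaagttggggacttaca
Ifih1: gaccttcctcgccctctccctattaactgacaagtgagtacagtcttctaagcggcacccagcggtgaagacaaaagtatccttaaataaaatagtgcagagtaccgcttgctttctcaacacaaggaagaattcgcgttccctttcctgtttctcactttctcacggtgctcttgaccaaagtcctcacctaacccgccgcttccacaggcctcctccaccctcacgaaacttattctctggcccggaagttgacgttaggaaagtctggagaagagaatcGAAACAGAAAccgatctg

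Inflammatory mediators lay mostly on the lower side. Of 20 measured cytokine and chemokine genes 18 lay below 0, with a median of -0.28 and 5 members lower at an unadjusted p under 0.05. The median was -0.45 without daughter 8 and -0.10 without daughters 6 and 13, and the members lower were 8 without daughter 4, 3 without daughter 6 and 1 without daughters 6 and 13. Cxcl9, a chemokine induced by interferon gamma, read 1.12, 1.28, 2.21, 1.60 and 1.04 in control and 0.62, 0.26, 0.98 and 0.18 in exposed daughters, -0.94 ± 0.31 apart without overlap. Its inducer Ifng read 0.93, 0.51, 0.95, 1.13 and 0.66 against 0.21, -0.03, 0.66 and 0.03, -0.62 ± 0.19 apart, with exposed daughter 8 level with the lower controls. Both were well above background in 3 of the 4 exposed pups. Ccl7, a monocyte chemokine, was -0.47 ± 0.14 apart without overlap. Il6 and Cxcl2, which lead many inflammatory responses, were well above background on 1 and 0 of the 9 arrays and were not tested.

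Of 19 acute phase genes 12 lay above 0 with a median of 0.09. Cd14, the endotoxin co-receptor, read -3.35, -3.15, -3.13, -2.92 and -3.41 in controls and -2.97, -2.44, -2.60 and -2.61 in exposed pups, 0.54 ± 0.15 apart, and Saa4, a constitutive serum amyloid, 3.68, 3.68, 4.43, 3.84 and 3.98 against 3.42, 2.51, 3.64 and 2.79, -0.83 ± 0.25 apart. These acute phase genes thus read in opposite directions, Cd14 with overlap and Saa4 without. Cells of the immune system were read through their markers. Adgre1, the F4/80 antigen of macrophages, read 2.02, 1.84, 2.13, 2.02 and 1.76 against 1.48, 1.07, 1.78 and 1.16, -0.58 ± 0.15 apart, but the macrophage list of 16 genes had a median of -0.05 and Csf1r read 1.46 to 1.94 in controls and 1.55 to 1.86 in exposed pups. Gzmb, the granzyme of cytotoxic lymphocytes, read 2.53, 2.55, 3.00, 2.96 and 2.39 against 1.74, 1.52, 2.23 and 1.98, -0.82 ± 0.20 apart without overlap. The lymphoid list median was -0.13, with 14 of 16 below 0. Basophil genes Mcpt8 and Prss34 were -0.99 ± 0.29 and -0.71 ± 0.26 apart, in a list whose median was -0.07. Granulocyte genes had a median of 0.06 with Mmp8, the neutrophil collagenase, at 0.79 ± 0.24, megakaryocyte genes -0.05, and NF-kB response genes -0.07.

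**Figure D3:**
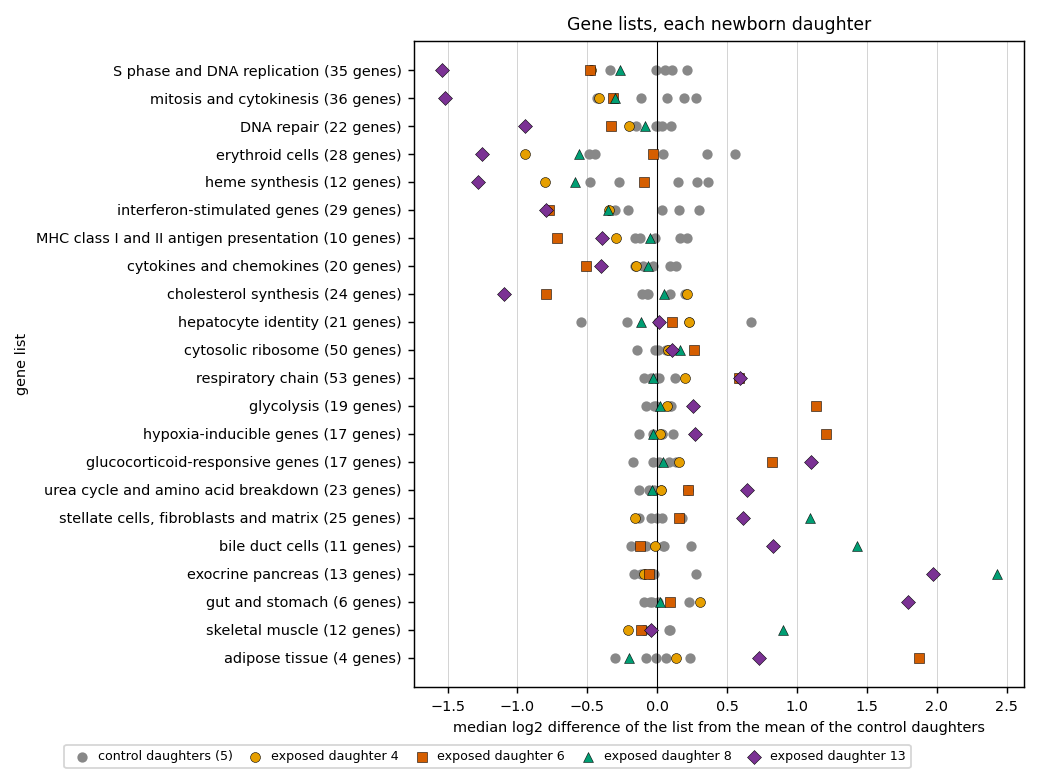
Median log2 difference from the mean of the control daughters (horizontal axis) over the measured members of 22 gene lists, for each control daughter (grey) and each exposed daughter (coloured symbols). Daughter 13 is lowest for cell cycle and heme genes, daughters 6 and 13 lie apart for interferon, cholesterol, respiratory chain and glucocorticoid-responsive genes, and daughters 8 and 13 for pancreas, bile duct and matrix genes.

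Genes of the mitochondrial respiratory chain formed the broadest group on the higher side. Of 53 measured subunits 52 lay above 0, with a median of 0.34, and 30 had an unadjusted p under 0.05, beside 6.98% of all transcripts. The list median was -0.01, 0.13, -0.09, 0.01 and -0.04 in control daughters and 0.20, 0.59, -0.03 and 0.60 in exposed daughters, so daughters 6 and 13 carried most of it, daughter 4 was above every control and daughter 8 was within the controls. Cycs, the electron carrier cytochrome c, read -0.08, 0.01, -0.13, -0.10 and 0.11 in controls and 0.39, 1.51, 0.15 and 1.31 in exposed pups, 0.87 ± 0.22 apart without overlap. Atp5c1, a subunit of the ATP synthase, read 0.27, 0.26, 0.11, 0.06 and 0.16 against 0.47, 0.86, 0.29 and 0.96, 0.47 ± 0.13 apart. Cyc1 of complex III and Cox5b of complex IV were 0.65 ± 0.19 and 0.43 ± 0.13 apart, both with overlap. Without daughters 6 and 13 the median was 0.09, 43 of 53 lay above 0 and 1 had an unadjusted p under 0.05. That count was 9 without daughter 6, 10 without daughter 13 and 18 with median centring. An NRF1 match, searched by the factor's consensus, was found in 31.1% of the 45 windows of this list in 6.23% of all and in 11.8% of those of measured genes.

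Mitochondrial ribosome genes did not share this, with 17 of 32 above 0 and a median of 0.01. Of 50 cytosolic ribosome genes 48 lay above 0, with a median of 0.16. In 9 members (18%) every exposed daughter lay above every control, beside 2.09% of all transcripts. At an unadjusted p under 0.05 there were 7 members higher, beside 6.98% of all transcripts. That count was 0 with median centring or without daughters 8 and 13 and 2 without daughters 6 and 13. Rpl7 read -0.76, -0.85, -0.71, -0.73 and -0.74 in controls and -0.53, -0.51, -0.52 and -0.62 in exposed pups, 0.22 ± 0.08 apart. Rps25 and Rpl9 were 0.25 ± 0.09 and 0.26 ± 0.09 apart, also without overlap. Ribosomal protein genes have many near-identical processed copies, so a probe can take signal from more than 1 of them. Proteasome genes had a median of 0.04, with 0 of 31 at an unadjusted p under 0.05.

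**Figure D4:**
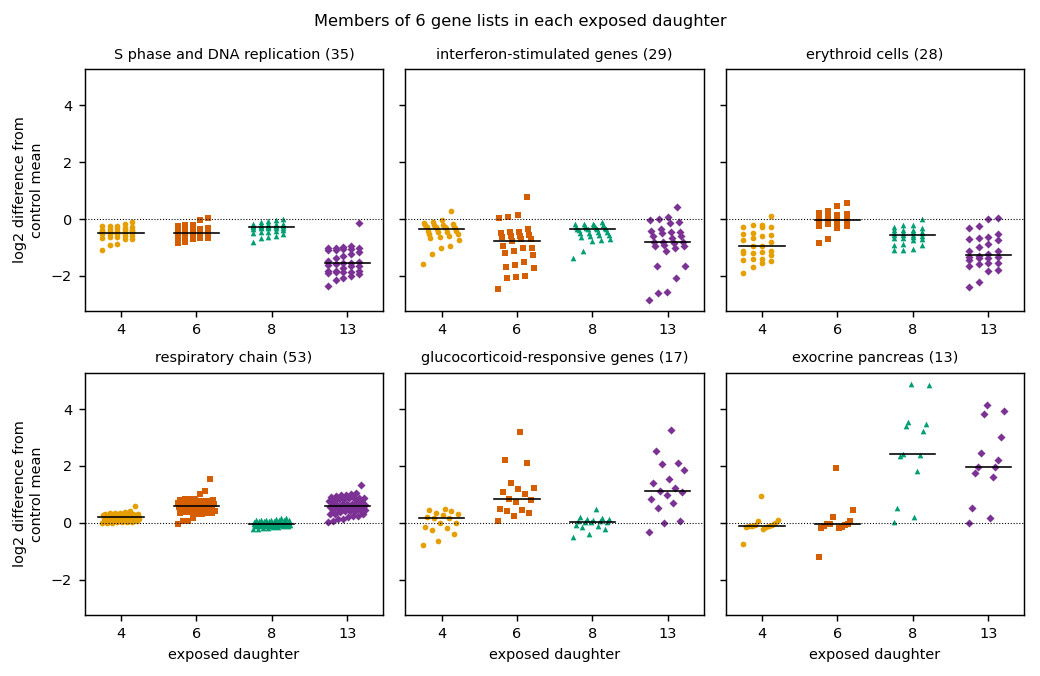
Log2 difference from the control mean (vertical axis) of every measured member of 6 gene lists in exposed daughters 4, 6, 8 and 13, where each point is a gene and the bar is the median. S phase members lie lowest in daughter 13, respiratory chain and glucocorticoid-responsive members highest in daughters 6 and 13, and pancreas members highest in daughters 8 and 13.

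Glucocorticoid-responsive genes, which stress hormones induce, were highest in exposed daughters 6 and 13. All 17 measured glucocorticoid-responsive genes lay at or above 0, with a median of 0.56. That list read 0.16, 0.82, 0.04 and 1.10 in exposed daughters 4, 6, 8 and 13 and -0.03, 0.14, -0.17, 0.01 and 0.08 in controls, and without daughters 6 and 13 its median was 0.04. Cebpd, a transcription factor induced by glucocorticoids, read -1.43, -1.55, -1.96, -1.88 and -1.50 in controls and -1.18, 0.54, -1.54 and 0.42 in exposed pups, 1.22 ± 0.36 apart. Ddit4, an inhibitor of mTORC1 with the same inducer, read -1.87, -1.65, -1.74, -1.68 and -1.88 against -1.89, 0.34, -1.60 and 0.76, 1.17 ± 0.42 apart. Fkbp5 and Tsc22d3, standard reporters of the hormone, were 0.56 ± 0.20 and 0.72 ± 0.28 apart. In each of these genes daughters 6 and 13 were the highest pups, and exposed and control daughters overlapped.

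The lists of glucose production and amino acid breakdown did not set both of these pups apart. The gluconeogenesis and glycogen list read 0.13, 0.56, -0.06 and 0.08 in exposed daughters 4, 6, 8 and 13, with the highest control at 0.11, so daughter 6 lay far above the controls, daughter 4 just above and daughter 13 among them. The urea cycle and amino acid list read 0.03, 0.22, -0.04 and 0.64, with the highest control at 0.22, so daughter 13 lay above the controls and daughter 6 level with the highest of them. Some single members were high in both pups. Got1, the cytosolic aspartate transaminase, read -0.14, -0.27, -0.35, -0.37 and -0.10 in controls and -0.49, 2.94, -0.37 and 3.54 in exposed pups, 1.65 ± 0.66 apart, and Oat, ornithine aminotransferase, read -0.68, -0.61, -0.57, -0.80 and -0.56 against -0.61, 1.55, -0.40 and 2.81, 1.48 ± 0.51 apart. Sds, which deaminates serine, and Gls2, the liver glutaminase, were 0.84 ± 0.29 and 0.59 ± 0.21 apart. Foxo1, the factor that insulin excludes from the nucleus, was 0.57 ± 0.19 apart, and the glucose-6-phosphate transporter Slc37a4 0.57 ± 0.21. Igf1, the growth factor that liver releases in response to growth hormone, read 1.58, 2.27, 2.53, 2.21 and 1.97 in controls and 0.93, 0.88, 2.37 and 0.54 in exposed pups, -0.93 ± 0.33 apart, with daughter 8 among the controls. Its carrier Igfals was -0.76 ± 0.26 apart, the growth hormone receptor Ghr -0.42 ± 0.18 apart and Igfbp3, a binding protein, 0.58 ± 0.22 apart. The receptor Igf1r was 0.43 ± 0.16 apart. The growth hormone and IGF list as a whole was split, with 8 of 16 above 0 and a median of -0.03.

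Hypoxia and glycolysis genes were highest in daughter 6. Their list medians were 1.21 and 1.13 in daughter 6, 0.27 and 0.26 in daughter 13, and at most 0.07 in daughters 4 and 8, against at most 0.11 in controls. Pgk1, a glycolytic kinase, read -2.08 to -1.86 in controls and -1.53, -0.20, -1.92 and -1.03 in exposed pups, 0.80 ± 0.24 apart, and Bnip3, a mitophagy receptor induced by low oxygen, -1.46, -1.26, -1.54, -1.52 and -1.45 against -1.07, 1.55, -1.67 and -0.52, 1.02 ± 0.44 apart. Hkdc1, a hexokinase domain protein, was the exception, since all 4 exposed pups lay above all controls: 1.00, 1.19, 1.16, 0.73 and 1.06 against 2.03, 2.77, 2.05 and 5.31, 2.01 ± 0.49 apart. Pgam1 was also free of overlap, at 0.89 ± 0.29. Cholesterol synthesis genes were low in the same 2 pups that were high for glucocorticoid-responsive genes. Of 24 members 20 lay below 0, and the list median was 0.21, -0.80, 0.05 and -1.10 in exposed daughters and -0.11, 0.09, -0.07, -0.07 and 0.20 in controls. Tm7sf2, a sterol reductase, read 3.49, 3.59, 3.65, 3.14 and 3.55 against 3.27, 2.26, 3.36 and 1.70, -0.84 ± 0.28 apart. Fatty acid synthesis genes had a median of -0.19, with the elongase Elovl5 at -0.54 ± 0.16 and no overlap. Fatty acid oxidation genes had a median of -0.002, with Acot1, an acyl-CoA thioesterase, at 1.56 ± 0.47.

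With loess normalization, genes that define hepatocytes lay close to the controls. The 21 hepatocyte identity genes had a median of 0.07, and list medians of the exposed pups, -0.12 to 0.23, lay inside the control range of -0.55 to 0.67. The median was -0.11 without control daughter 4 and 0.27 without control daughter 8. It was -0.25 when every array was also scaled to the same median absolute ratio after loess, so its sign depended on these choices. Ttr, the thyroid hormone carrier transthyretin, was the member with the smallest unadjusted p. It read 4.64, 4.82, 5.26, 4.73 and 4.97 in controls and 4.99, 3.70, 4.59 and 2.31 in exposed pups, -0.99 ± 0.40 apart, lowest in daughter 13. Fetal and imprinted growth genes had a median of 0.01. Phlda2, an imprinted growth restrainer, read 3.30, 3.04, 3.42, 3.35 and 3.31 against 3.49, 1.56, 3.33 and 0.53, low in daughters 6 and 13 only, and Plagl1, an imprinted transcription factor, was 0.47 ± 0.19 apart.

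Aryl hydrocarbon receptor targets did not lie to one side. Cyp1a1, the classical target, was well above background on 1 of 9 arrays and was not tested. Cyp1a2, the liver form, read 2.63, 2.62, 3.28, 2.43 and 2.96 in controls and 2.10, 0.65, 2.63 and 2.16 in exposed daughters, -0.90 ± 0.33 apart, lowest in daughter 6 and well above background in 3 of the 4 exposed pups. Cyp1b1 was 0.25 ± 0.11 apart. Cyp2s1 read -2.80, -2.49, -1.96, -1.81 and -2.43 in controls and -1.81, -0.92, -0.19 and -0.48 in exposed daughters, 1.45 ± 0.33 apart and without overlap. Of the 10 measured targets 5 lay above 0, the median was -0.04, and 2 were higher and 1 lower at an unadjusted p under 0.05.

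Targets of NRF2, the factor that answers oxidants and electrophiles, were split as well, with 14 of 27 above 0 and a median of 0.02. Gpx3, a secreted glutathione peroxidase, read 1.47, 1.77, 1.58, 1.83 and 1.39 in controls and 2.44, 3.33, 1.76 and 3.43 in exposed pups, 1.13 ± 0.27 apart with overlap, and Cbr3, a carbonyl reductase, -2.25, -1.94, -2.11, -2.03 and -2.38 against -2.28, -0.13, -0.58 and -0.38, 1.30 ± 0.32 apart with daughter 4 among the controls. Both subunits of the enzyme that limits glutathione synthesis read lower without overlap. Gclc was 2.29, 2.13, 2.22, 2.33 and 2.11 in controls and 2.03, 1.62, 1.82 and 0.86 in exposed pups, -0.63 ± 0.18 apart, and Gclm was -0.28 ± 0.11 apart. Metallothionein and metal genes had a median of -0.09 with 0 of 9 at an unadjusted p under 0.05. Enzymes of the CAR and PXR pathways had a median of -0.04, with Ugt2b5 at -0.74 ± 0.29 and Cyp3a13 at 0.45 ± 0.18, and bile acid genes -0.02, with Cyp7b1 at 0.53 ± 0.21. Iron handling genes had a median of 0.02, and Bmp6, the signal that induces hepcidin, read 0.53, 0.59, 0.45, 0.47 and 0.53 against 0.76, 0.64, 0.95 and 1.16, 0.36 ± 0.10 apart without overlap.

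Stress pathways gave small values. Targets of p53 had a median of 0.12 with 13 of 16 above 0, and Cdkn1a, the cell cycle inhibitor p21, read -1.61, -1.64, -1.63, -1.64 and -1.76 in controls and -1.19, -0.24, -1.62 and -0.80 in exposed pups, 0.69 ± 0.19 apart, where daughter 8 was level with the controls. Genes of the unfolded protein response had a median of 0.10, with Manf, a secreted stress protein of the endoplasmic reticulum, at 0.29 ± 0.10 and no overlap. Heat shock genes had a median of 0.11 and clock genes of 0.08, with Clock itself at 0.42 ± 0.14. Complement and coagulation genes, which hepatocytes secrete, had a median of -0.13 with 25 of 32 below 0. C1ra, a protease of the first complement component, read 1.58, 1.61, 1.43, 1.68 and 1.29 against 1.20, 0.38, 1.06 and 0.80, -0.66 ± 0.16 apart without overlap. Sinusoidal endothelium genes had a median of -0.01 and 0 of 15 at an unadjusted p under 0.05.

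Several lists of genes of neighbouring tissues were high in some exposed pups and not in others. So were those of bile duct cells and of stellate cells, fibroblasts and matrix, which the liver itself holds. Of 23 listed exocrine pancreas genes 13 were measured, that is, above background by the scanner's criterion on 4 or more of the 9 arrays. Pups with high values could bring this about, so their counts carry no support. Their list median was -0.09, -0.06, 2.43 and 1.97 in exposed daughters 4, 6, 8 and 13 and -0.05, -0.02, 0.28, -0.16 and -0.12 in controls. Pnlip, pancreatic lipase, was well above background on 0 of 9 arrays and Cpb1 on 3. Bile duct genes read -0.02, -0.13, 1.43 and 0.83 in the exposed pups and at most 0.24 in controls, and stellate cell, fibroblast and matrix genes -0.16, 0.15, 1.09 and 0.62 with at most 0.18 in controls. All 3 lists were thus high in daughters 8 and 13 and near the controls in daughters 4 and 6. Gut and stomach genes were highest in daughter 13, at 1.80 against at most 0.31 in the other exposed pups, adipose genes in daughters 6 and 13, at 1.87 and 0.73, and skeletal muscle genes in daughter 8 alone, at 0.90. The same filter left 6 of 17 listed gut and stomach genes and 4 of 10 adipose genes. Of the fat markers left out, Adipoq, Cfd and Retn were well above background on 1 of 9 arrays, and Lep, Plin1 and Ucp1 on 0. In sons the muscle list median was 0.74. Kidney and adrenal genes had a median of -0.04 and lung genes of 0.08.

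Sparcl1, a matrix glycoprotein, read 2.15, 1.91, 2.17, 2.39 and 1.97 in controls and 2.24, 3.01, 4.50 and 4.87 in exposed pups, 1.54 ± 0.40 apart. Krt19, the keratin of duct cells, read -2.97, -2.59, -2.53, -2.36 and -2.73 against -2.45, -2.10, -0.13 and -0.89, 1.25 ± 0.36 apart, and the duct gene Anxa13 1.99 ± 0.62. Tagln, an actin-binding protein of smooth muscle, read -2.02, -1.60, -1.68, -2.03 and -1.56 against -1.93, -0.11, -0.54 and 0.08, and was near the controls in daughter 4 only. Dcn, the matrix proteoglycan decorin, was 0.70 ± 0.19 apart. Without daughters 8 and 13 the medians were -0.09 for pancreas, -0.07 for bile duct and -0.005 for stellate cell and matrix genes. Without those pups 13 interferon genes had an unadjusted p under 0.05 in place of 17, with a median of -0.59.

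Of the 8 genes with the largest SD among exposed daughters, the 7 given here show how far single pups went. Akr1c6, a hydroxysteroid dehydrogenase that is abundant in liver, read 7.78, 7.63, 8.85, 8.06 and 8.21 in controls and 7.35, 2.98, 8.13 and 3.68 in exposed daughters 4, 6, 8 and 13, so daughters 6 and 13 lay far below all other pups. Mfsd2a, a lysophospholipid transporter induced by fasting, read -1.75 to -1.58 in controls and -1.65, -1.55, -1.72 and 3.67 in exposed daughters, high in daughter 13 alone. Mup1, a major urinary protein of adult liver, read 0.57, 5.99, 0.50 and 0.82 in exposed daughters and -0.01 to 0.40 in controls, high in daughter 6 alone. Its family has many near-identical copies that a probe cannot separate, and it was well above background in 1 of 5 controls.

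Dmbt1, a mucosal glycoprotein, read -0.11, 0.95, 3.43 and 5.39 in exposed daughters and -0.16 to 0.17 in controls. It was highest in daughter 13 and next in daughter 8. The pancreatic enzymes Prss3 and Cela3b and the locus 2210010C04Rik had the reverse order, with 4.95, 5.25 and 4.86 in daughter 8 and 4.04, 4.20 and 2.88 in daughter 13. Dmbt1, Prss3, Mfsd2a, Cela3b and 2210010C04Rik were well above background in only some pups of each group or of the exposed group, so their low values are near background. Akr1c6, Prss3, Ugt2b5 and Gbp6 also belong to families of close copies and are uncertain in that respect. Since these genes were chosen by their SD, the values are a description.

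**Figure D5:**
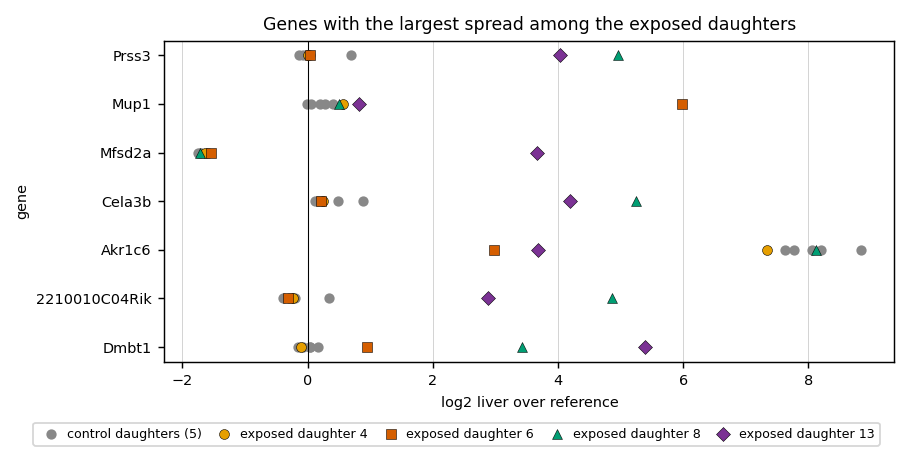
Log2 ratio of liver over reference (horizontal axis) for 7 of the 8 named genes with the largest SD among the exposed daughters, with control daughters in grey and the 4 exposed daughters in colour. Each gene has 1 or 2 exposed daughters far from all others: daughter 6 for Mup1, 13 for Mfsd2a, 6 and 13 for Akr1c6, and 8 and 13 for the remaining genes.

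The last comparison asked whether the difference in daughters was unlike that in sons, whose exposed group of 4 and control group of 5 had the same doses and days. The library labelled control son 6 read 1.98 for Xist and -2.11 for the Y-linked Ddx3y, where the other sons read -2.34 to -1.36 and 1.70 to 2.11, so its label is in doubt. Of 19776 transcripts limma called 0 for the difference between the sexes, with 1976 at an unadjusted p under 0.05 and a smallest adjusted p of 0.427. Leaving out control son 6 also gave 0, and leaving out exposed daughter 4 gave 23. The genes with the smallest unadjusted p were Crispld2, Bmp6, Lamb1, Crybg3, Pmp22 and Pml. Lamb1, a laminin chain of basement membranes, was 0.71 higher in exposed daughters and -0.18 in exposed sons, Pmp22, a myelin and epithelial membrane protein, 1.16 and -0.16, and Crybg3 0.50 and -0.10. For Bmp6 the values were 0.36 and -0.20, for Crispld2 1.00 and -0.02, and for Pml -0.70 and -0.02. Each adjusted p was 0.427 in limma.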

How the data were processed

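Per the labels, liver RNA of each pup (Cy5) was hybridised against universal mouse reference RNA (Cy3) on 2-colour arrays and scanned. The deposited scanner files, written by Feature Extraction 10.1.1.1 per the file headers, hold spot intensity values, of which the median signals and median backgrounds were used. The plan had assumed mean signals, which were not used here. The deposited log10 ratio of processed signals, background-subtracted and dye-normalized per the file headers, entered no result. The authors' deposited value table holds log2 ratios and served as an alternative. Its medians were -0.05 to -0.04 on every array, and it followed the loess ratios at r of 0.990 to 0.993 across probes, so its direction and scale match them. Its normalization is not given in the sources used here.

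Background was corrected by normexp with an offset of 50, ratios were normalized by loess within arrays, and spots marked as outliers were left missing. Probes were kept where Cy5 passed the scanner's background criterion in 4 or more of the 9 daughters. A gene was read from its brightest probe, named through RefSeq accessions (GRCm38.p6). Of 41174 probes 23374 were named. The 9 arrays were fitted in limma 3.58.1 (R 4.3.3) with a variance factor for each group, and p-values were adjusted (Benjamini and Hochberg) across every transcript tested, with 0.05 as the limit. The factors were 0.642 for controls and 1.74 for exposed daughters. The script was tested on simulated data. Genes are named by rule: as none was called, the 12 with the smallest unadjusted p in each direction, up to 4 of each list by smallest p, the 8 with the largest SD among exposed pups and the 6 with the smallest p between the sexes. Defining markers and the genes so marked in the text are added. Some genes chosen by the rule are not reported here. The members and lists were chosen with earlier results of these data known. Alternatives changed the background correction, normalization, filter, probe rule, spread model, slide or replicate block, and the pups included. The number of arrays limits the precision.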

Additional observations from a re-analysis of the deposited data

Results flagged for a closer look

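In 11 of 174 groups of daughters examined (6.32%), 1 pup lay apart from the others by Dixon's criterion. Chance alone meets it in about 1 of 20 unselected groups. The genes here were chosen from these same values, some for a large SD, and all groups share the same pups. That rate is therefore no reference for them, and the values are a description. Among genes, Me1 read -1.59 in control daughter 2, with the nearest control at -1.77. Mup1 read 5.99 in exposed daughter 6, with the nearest exposed pup at 0.82, and Mfsd2a read 3.67 in exposed daughter 13, with the nearest at -1.54. Control daughter 8 stood above the other controls for the pancreatic genes Prss3, at 0.69 against 0.05, and 2210010C04Rik, at 0.34 against -0.20.

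Among list medians, given as log2 differences from the control mean, exposed daughter 13 stood apart for mitosis and cytokinesis (-1.52, nearest -0.42), for S phase and DNA replication (-1.54, nearest -0.48) and for gut and stomach genes (1.80, nearest 0.31). Exposed daughter 8 stood apart for skeletal muscle genes (0.90, nearest -0.04), lung genes (0.15, nearest 0.002) and proteasome genes (-0.0173, nearest 0.07).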

How the results depend on the processing

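The number of called transcripts was 0 in each direction in every alternative run except 2. All 18 arrays with 1 shared spread called 132 higher and 178 lower, with 4653 at an unadjusted p under 0.05, and leaving out 1 pup at a time gave 0 to 10 higher and 0 to 2 lower, the calls coming without exposed daughter 4. Counts at an unadjusted p under 0.05 were 1395 without exposed daughters 8 and 13, 1484 without 6 and 13, and 1292 to 2866 leaving out 1 pup, lowest without exposed daughter 13. Transcripts without overlap numbered 1625 higher and 1592 lower without daughters 8 and 13, 1428 and 1234 without 6 and 13, and 494 to 1082 higher and 524 to 1065 lower leaving out 1 pup; fewer pups make separation easier. Median centring gave 90 lower. The SD ratio was 0.85 without daughters 6 and 13, 1.31 with median centring and 1.32 with no filter on dim probes. The difference between the sexes had 0 to 23 calls leaving out 1 pup. Numbers 4 and 8 occur in both groups. Deviations of same-numbered pups from their group means correlated at 0.03 and 0.13. Pairs of different number were not set beside them, so whether same-numbered pups share more than a number was not tested. The replicate block, with 1 shared spread, gave 1530 at an unadjusted p under 0.05, of which 39.9% were higher. This block compares only pups of the same number, so its differences rest on daughters 4 and 8 of each group and leave out exposed daughters 6 and 13. It reversed Phlda2 (0.18), Cyp27a1 (-0.18), Trp53inp1 (-0.11), Hspa1a (-0.0542), Ddit4 (-0.0527), Higd1a (-0.00923), Rora (-0.0181), Fads1 (0.0652), Sc5d (0.0414), Cyp17a1 (-0.0303) and Mfsd2a (-0.0353). Leaving out daughters 6 and 13 reversed Phlda2 (0.13), Cyp27a1 (-0.0523), Rora (-0.0112), Cyp17a1 (-0.0232) and Mfsd2a (-0.0134), and leaving out 8 and 13 reversed Cldn7 (-0.12), Prss3 (-0.0767), Clps (-0.0886), Cela3b (-0.14) and 2210010C04Rik (-0.12). The processed signals reversed Keg1 (0.00539). The causes were not tested. Of the other gene values under alternatives, 4191 kept their side and 60 passed the threshold. Of list medians under alternatives, 1170 stayed within the pooled SD of the pups' list medians and 54 moved farther. With arrays scaled after loess, medians were -0.45 for complement and coagulation, -0.31 for macrophage and -0.31 for CAR and PXR genes, in place of -0.13, -0.05 and -0.04. Probes near background and 4 exposed pups limit what could be called.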
